A study of Mus musculus with 8 samples.

Results

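The collagen genes of mouse skin were taken as every gene whose symbol has the form Col, a number, the letter a and a number, on probe sets that the array annotation ties to a single symbol. This rule found 42 genes on 82 probe sets, out of 18193 genes measured by probe sets with a single symbol. Where a gene had several probe sets, the one of highest mean level over the 8 arrays was used. The family fell into 11 fibrillar collagens, 9 network-forming collagens, 9 fibril-associated collagens (FACITs), 6 beaded-filament collagens, 4 transmembrane collagens, the 2 multiplexins and the anchoring-fibril collagen *Col7a1*. In 32 of the 42 genes the mean level lay above the lowest 30% of all genes, and these 32 entered the test between the diets. Of the 10 genes below that limit of 6.68 on the deposited log2 scale, *Col2a1* came nearest at 6.67, and the lowest gene above it was *Col9a3* at 6.69. *Col6a6*, *Col21a1* and *Col28a1* were not analysed here.

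RNA came from whole dorsal skin of hairless laboratory mice of the strain Hos:HR-1, all female, and each array holds what the labels call a biological replicate. The collagen-diet group held 4 arrays, from mice fed for 12 weeks a mixture of fish-scale collagen hydrolysate (collagen split into peptides) and AIN-93G, at 2 g of hydrolysate for every 100 g of AIN-93G. The control-diet group held 4 arrays from mice that ate AIN-93G alone, a purified rodent diet, for the same time. All mice started at 9 weeks of age, were sampled at 21 weeks and lived 4 to a cage, with 16 mice in the study, and the cages of the arrayed mice are not named in the labels.

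Collagens are proteins of 3 chains wound into a triple helix. Fibrillar collagens pack into the fibres that give the dermis its tensile strength, and fibril-associated collagens sit on the surface of those fibres. Network-forming collagens build sheets such as the basement membrane under the epidermis and around vessels. Beaded-filament collagens form fine microfibrils between cells and fibres, transmembrane collagens span the plasma membrane, and anchoring fibrils of type VII collagen tie the epidermal basement membrane to the dermis. Fibroblasts make most of the fibrillar collagen of skin, whereas basal keratinocytes make type XVII collagen, a part of the hemidesmosome.

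The deposited log2 values differed very little between arrays, with a median SD of 8.66e-06 over the 8 arrays. Such a difference is no fold change of RNA. A difference below is the collagen-diet mean minus the control-diet mean, divided by the pooled within-diet SD of the gene. An array's position is its deviation from the gene's mean over 8 arrays in the same unit. Under each alternative the SD was fitted anew on the values and arrays used there, so the unit of the difference changed with it. Of the marker genes of the labelled tissue, all 8 basal keratinocyte markers and all 12 fibroblast markers passed the level filter, against 2 of 8 cartilage markers. Only the lowest 30% of all genes fail this filter, so passing it does not by itself show that a gene was expressed. All 14 skeletal muscle markers passed it too, and their mean deviation was low in collagen-diet array 1 and control-diet array 4, at -1.35 and -1.39 SD. With 4 arrays against 4, an exact permutation test cannot give a two-sided p below 0.0286.

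Promoter stretches of 4 collagen genes are shown because these genes stand for the patterns described below. *Col1a2* and *Col3a1* are fibrillar collagens of the dermis, *Col5a1* belongs to the genes that varied most between arrays, and *Col17a1* followed another array pattern. Each stretch is the 250 bases before the RefSeq transcript start in GRCm38.p6, written 5′ to 3′ on the strand of the gene. Capitals mark the TATA box motif (TATAAA), the CCAAT box motif (those 5 letters) and the GC box motif (GGGCGG), each searched on both strands. No match overlapped another in these 4 stretches.
Col1a2, chr6:4505368-4505617, plus strand: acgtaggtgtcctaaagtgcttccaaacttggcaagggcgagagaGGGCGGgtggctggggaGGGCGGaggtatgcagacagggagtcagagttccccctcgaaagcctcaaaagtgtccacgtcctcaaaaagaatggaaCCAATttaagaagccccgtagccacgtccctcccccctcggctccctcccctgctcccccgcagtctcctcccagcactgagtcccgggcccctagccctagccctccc
Col3a1, chr1:45311288-45311537, plus strand: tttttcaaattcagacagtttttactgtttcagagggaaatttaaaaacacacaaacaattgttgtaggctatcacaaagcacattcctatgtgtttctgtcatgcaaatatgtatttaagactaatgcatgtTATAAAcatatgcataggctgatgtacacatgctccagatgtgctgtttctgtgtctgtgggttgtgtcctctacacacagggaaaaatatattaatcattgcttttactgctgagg
Col5a1, chr2:27886175-27886424, plus strand: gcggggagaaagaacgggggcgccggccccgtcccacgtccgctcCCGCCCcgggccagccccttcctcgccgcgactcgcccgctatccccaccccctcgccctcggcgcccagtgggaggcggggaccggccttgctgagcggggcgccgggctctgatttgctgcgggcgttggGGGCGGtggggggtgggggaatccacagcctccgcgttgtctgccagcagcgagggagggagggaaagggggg
Col17a1, chr19:47692043-47692292, minus strand: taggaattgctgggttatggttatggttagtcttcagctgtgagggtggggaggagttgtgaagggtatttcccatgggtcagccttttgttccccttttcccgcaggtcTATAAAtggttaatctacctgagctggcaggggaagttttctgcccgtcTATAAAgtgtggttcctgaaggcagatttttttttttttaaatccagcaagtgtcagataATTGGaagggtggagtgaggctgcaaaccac
The *Col1a2* stretch held CCAAT 109 bases and GGGCGG 188 and 205 bases before the start, and no TATAAA. The *Col3a1* stretch held TATAAA 117 bases before the start and neither other motif, and *Col5a1* held only GGGCGG, on both strands. *Col17a1* held TATAAA at 91 and 140 bases and a CCAAT on the other strand at 31 bases. The RefSeq table gave 36 such stretches for 33 of the 42 collagen genes and 32851 for all genes. On either strand, GGGCGG occurred in 21 of the 36 collagen stretches (58.3%) and in 32.7% of all stretches. CCAAT occurred in 13 collagen stretches (36.1%) and 33.8% of all, and TATAAA in 5 (13.9%) and 12.4% of all. *Col4a1* and *Col4a2*, 2 chains of the same basement membrane trimer, lay head to head on opposite strands. Their full RefSeq entries, from which the 250-base stretches were cut, overlapped by 78 bases at chr8:11312777-11312854. Whether the 250-base stretches themselves overlap was not tested. A match of letters is a description and no binding site.

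The level of a probe set depends on its probes as well as on the RNA, so levels describe each gene's signal and are no ranking of RNA amounts. Fibrillar collagens spanned 5.95 to 13.35 on the deposited log2 scale with a median of 8.44. *Col1a2* and *Col3a1*, chains of type I and type III collagen, stood at 13.35 and 13.17, *Col5a2* of type V at 10.70 and *Col1a1* of type I at 9.73. At the low end were *Col24a1* at 5.95, *Col11a2* at 6.53 and the cartilage collagen *Col2a1* at 6.67, all below the level filter. Network-forming collagens spanned 6.21 to 9.72 with a median of 7.34, from *Col10a1*, a growth plate collagen, to *Col4a1*. FACITs spanned 6.35 to 9.15 with a median of 6.97, led by *Col12a1* at 9.15, *Col16a1* at 8.76 and *Col14a1* at 8.70. The beaded class split into *Col6a3*, *Col6a2* and *Col6a1* at 10.98, 10.53 and 10.08 and 3 genes below the filter, *Col6a4*, *Col26a1* and *Col6a5* at 6.44, 6.35 and 5.72. Among the transmembrane collagens, *Col17a1* stood at 11.32, against 6.57 to 7.66 for *Col13a1*, *Col25a1* and *Col23a1*. *Col7a1* lay at 8.9977, and the multiplexins *Col18a1* and *Col15a1* at 9.24 and 7.82. For comparison, the median over all 18193 genes was 7.46. The order of the class medians depended on how probe sets were combined: with a gene's probe sets averaged the medians were 7.56 for fibrillar, 7.29 for network, 6.64 for FACIT, 8.22 for beaded and 6.95 for transmembrane collagens. Probe sets of the same gene differed by up to 6.31, in *Col1a2*, whose 3 probe sets stood at 13.35, 11.20 and 7.04.

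**Figure D1:**
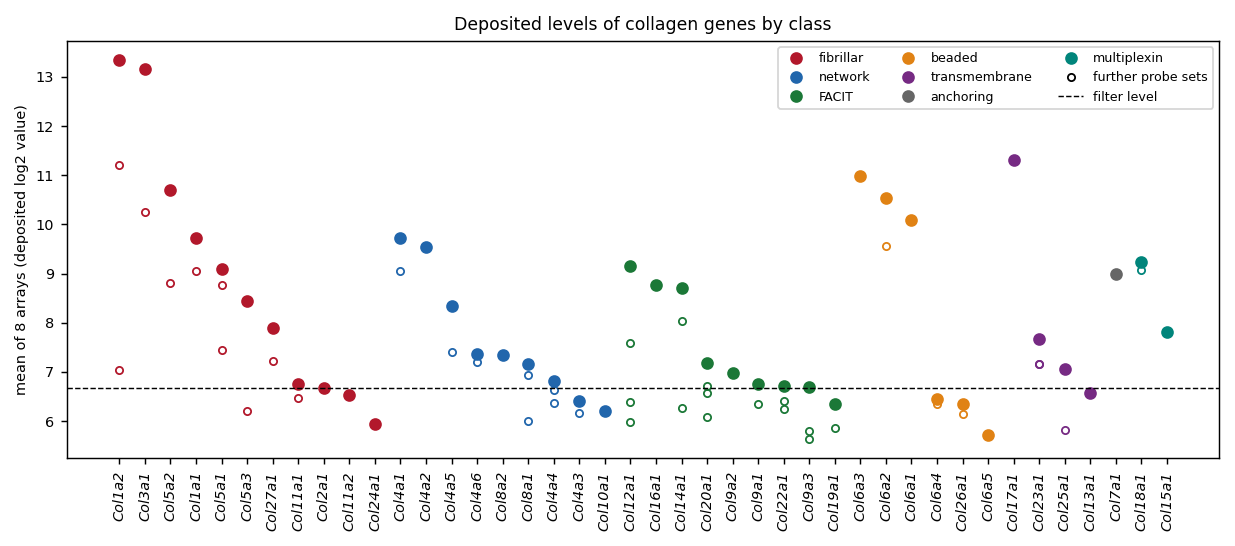
Mean deposited log2 value over the 8 arrays for each of 42 collagen genes (y axis), ordered by class and level along the x axis. Filled points are the probe set used for the gene, open points its further probe sets, and the dashed line is the level filter at 6.68; *Col1a2* and *Col3a1* stand at 13.35 and 13.17, and 10 filled points lie below the line.

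The comparison of the diets asks whether feeding collagen peptides went with a different expression of the skin's own collagen genes. No collagen gene passed the test: 0 of the 32 collagen genes tested had an adjusted p below 0.05 in limma, against 0% of the 12735 genes tested. At an unadjusted p below 0.05 there were 0 collagen genes of 32, against 5.36% of the genes tested (682). In 0 of the 42 collagen genes did the 4 collagen-diet arrays and the 4 control-diet arrays stand apart without overlap, against 2.81% of all genes (511) and 3.31% of the genes tested (421). The smallest unadjusted p was that of *Col8a2* at 0.0883, and the adjusted p of each of the 32 was 0.999. Every 95% confidence interval of the 32 differences included 0, and the intervals reached down to -3.00 and up to 3.14 SD. In 24 of the 32 the interval held differences of 1 SD in both directions. Each of the 32 intervals reached more than 1 SD to either side of its difference. A fitted difference of 1 SD would thus have left 0 inside the interval in every gene, with 4 arrays a diet.

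**Figure D2:**
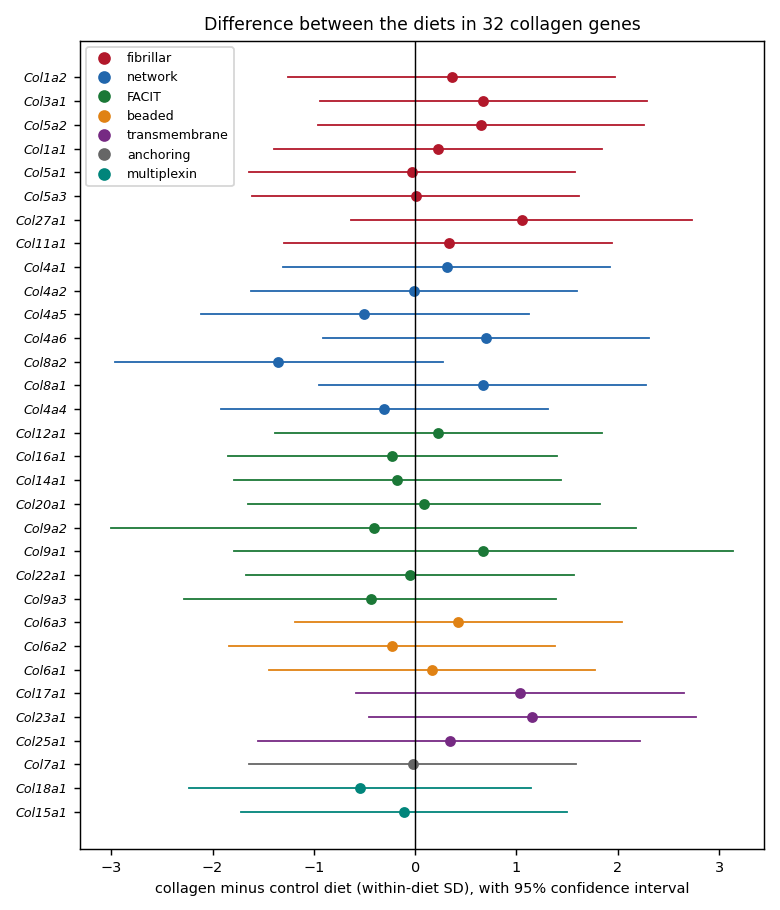
Difference between the diets (x axis, collagen minus control diet, in within-diet SD) for the 32 collagen genes tested, by class from top to bottom. Points are the fitted differences and bars their 95% confidence intervals; all 32 bars cross the line at 0, and *Col8a2* at -1.35 SD and *Col23a1* at 1.15 SD lie farthest out.

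On the deposited values 27 collagen genes were higher and 15 lower on the collagen diet, without regard to size, with a median difference of 0.23 SD. Over all genes, 48% were higher, and the median difference was -0.04 SD. The counts moved with the scaling of the arrays, for all genes as for the collagen genes: 13 collagen genes were higher and 25 lower after quantile normalization (median -0.17 SD), and 13 were higher and 29 lower after centring each array on its median (-0.11 SD). Over all genes 28.8% were higher after quantile normalization and 10.1% after centring, beside 31% of the collagen genes under each scaling and 64.3% on the deposited values. Array medians lay up to 0.000369 apart, which exceeded the within-diet SD of 32 of the 42 collagen genes. Leaving out collagen-diet array 3 brought the median of the collagen genes to -0.04 SD, with 21 higher and 21 lower, and leaving out collagen-diet array 4 brought the counts to 35 higher and 7 lower. As each array was left out, the class medians ranged from 0.16 to 0.72 SD for fibrillar, -0.18 to 0.50 SD for network, -0.32 to 0.16 SD for FACIT, -0.17 to 0.73 SD for beaded and 0.46 to 1.08 SD for transmembrane collagens. The beaded median was -0.17 SD without collagen-diet array 3. Quantile normalization set *Col1a2*, *Col3a1*, *Col6a5* and *Col24a1* to the same value on every array, so these 4 had no direction there.

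Among the fibrillar collagens 10 of 11 were higher on the collagen diet by any amount and 0 of the 8 tested passed, with a class median of 0.36 SD on the deposited values, 0.10 SD under quantile normalization and -0.04 SD under centring. *Col1a1*, which encodes the alpha 1 chain of type I collagen, had deposited values of 9.7261, 9.7347, 9.7435 and 9.7303 in collagen-diet arrays 1 to 4, against 9.7297, 9.7333, 9.7385 and 9.7275 in control-diet arrays 1 to 4. Array 3 was the highest of either diet, and the groups overlapped throughout. The means were 9.7337 ± 0.00742 on the collagen diet and 9.7322 ± 0.00482 on the control diet (SD, n = 4 each). The difference was 0.23 SD (95% CI -1.39 to 1.84), or 0.00141 ± 0.00421 on the deposited scale (SE), with an adjusted p of 0.999 in limma. Without collagen-diet array 3 the difference in *Col1a1* was -0.41 SD, and without control-diet array 4 it was -0.03 SD.

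*Col1a2*, the alpha 2 chain of the same trimer, deviated from its mean by -1.02, 0.21, 1.66 and -0.13 SD in collagen-diet arrays 1 to 4, against -0.68, 0.04, 0.94 and -1.02 SD in control-diet arrays 1 to 4. The ranking of the 8 arrays was that of *Col1a1*, with a difference between diets of 0.36 SD (95% CI -1.25 to 1.97) that was -0.17 SD without collagen-diet array 3. For *Col3a1*, which forms the finer fibres that accompany type I collagen, the collagen-diet arrays stood at -0.68, 0.27, 1.76 and 0.00 SD, against -0.36, -0.93, 1.04 and -1.10 SD on the control diet. Its difference was 0.67 SD (95% CI -0.94 to 2.29), 0.25 SD without collagen-diet array 3 and 1.36 SD without control-diet array 3. The highest array was again array 3 of each diet, and collagen-diet array 3 lay above every control-diet array.

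Type V collagen, which co-assembles with type I and limits fibril width, showed the same arrays on top. *Col5a2* stood at -0.65, -0.08, 1.91 and 0.12 SD in the collagen-diet arrays, against -0.72, -1.04, 0.95 and -0.48 SD in the control-diet arrays, a difference of 0.65 SD (95% CI -0.96 to 2.26) that was 0.16 SD without collagen-diet array 3 and 1.22 SD without control-diet array 3. *Col5a1* stood at -1.09, -0.25, 1.56 and -0.27 SD, against -0.11, -0.88, 1.20 and -0.15 SD on the control diet. The 2 groups of *Col5a1* lay on each other, with a difference of -0.03 SD (95% CI -1.64 to 1.58) that was 0.40 SD without control-diet array 3 and 0.10 SD with the mean of its probe sets. *Col5a3* differed by 0.01 SD and *Col11a1*, a chain of type XI collagen, by 0.33 SD. *Col27a1*, the fibrillar collagen of smallest p (0.180), had 1.04, 0.67, 1.03 and -0.64 SD in the collagen-diet arrays, against -1.68, 1.11, -0.75 and -0.78 SD in the control-diet arrays. In this gene 3 collagen-diet arrays and control-diet array 2 were high, and the difference of 1.05 SD (95% CI -0.63 to 2.73) was 0.11 SD under quantile normalization and -0.08 SD under centring. The 3 fibrillar genes below the level filter, *Col2a1*, *Col11a2* and *Col24a1*, differed by 0.12, 0.54 and 0.76 SD and were not tested.

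Among the network-forming collagens 5 of 9 were higher on the collagen diet and 4 lower, and 0 of the 7 tested passed, with a median of 0.06 SD on the deposited values, -0.19 SD under quantile normalization and -0.14 SD under centring. *Col4a1* and *Col4a2* form the trimer common to nearly all basement membranes. *Col4a1* stood at -0.15, 0.41, 0.54 and -0.17 SD in collagen-diet arrays 1 to 4, against -0.86, -1.70, 0.67 and 1.27 SD in control-diet arrays 1 to 4. Its 4 collagen-diet arrays lay inside the range of the control-diet arrays, with SDs of 0.000259 and 0.000953 on the deposited scale (n = 4 each). *Col4a2* stood at -0.83, -0.15, 0.96 and 0.00 SD, against -0.43, -1.38, 0.38 and 1.46 SD on the control diet. Both genes were highest in control-diet array 4 and lowest in control-diet array 2, unlike *Col1a1*, *Col1a2* and *Col3a1*. The differences were 0.31 SD (95% CI -1.30 to 1.92) in *Col4a1* and -0.01 SD (95% CI -1.62 to 1.60) in *Col4a2*. Without control-diet array 4 they were 0.97 and 0.59 SD, and without control-diet array 2 they were -0.27 and -0.57 SD.

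The epithelial type IV chains *Col4a5* and *Col4a6* differed by -0.50 and 0.70 SD, and *Col4a6* was at -0.15 SD after quantile normalization and 0.04 SD after centring. *Col4a6* stood at 0.69, -0.39, 1.00 and 0.09 SD in the collagen-diet arrays, against -0.83, -1.89, 0.33 and 0.98 SD in the control-diet arrays. *Col8a2* encodes a chain of type VIII collagen, which forms hexagonal lattices under endothelium. It stood at -0.81, -0.37, -0.19 and -1.32 SD in the collagen-diet arrays, against -0.79, 0.98, 2.33 and 0.16 SD in the control-diet arrays. All 4 collagen-diet arrays of *Col8a2* lay below its mean and 3 control-diet arrays above it, with control-diet array 1 among the collagen-diet values. The difference was -1.35 SD (95% CI -2.96 to 0.27), -0.35 SD after quantile normalization and -0.69 SD after centring, and ranged from -2.30 to -1.08 SD as each array was left out. Its partner chain *Col8a1* differed by 0.67 SD (95% CI -0.95 to 2.28), highest in collagen-diet arrays 3 and 4. *Col4a4* differed by -0.31 SD, and *Col4a3* and *Col10a1*, below the filter, by 0.06 and 0.94 SD.

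FACITs were higher on the collagen diet in 4 genes and lower in 5, and 0 of the 8 tested passed. The class median was -0.05 SD, -0.10 SD after quantile normalization and -0.15 SD after centring. *Col12a1* and *Col14a1* coat type I fibrils and influence how they bundle. *Col12a1* stood at -1.02, -0.58, 1.46 and 0.59 SD in collagen-diet arrays 1 to 4, against -0.76, -0.93, 0.45 and 0.78 SD in control-diet arrays 1 to 4, and *Col14a1* at -0.84, -0.77, 1.36 and -0.09 SD, against -0.46, -0.17, 1.54 and -0.56 SD. Array 3 of the control diet was the highest for *Col14a1* and array 3 of the collagen diet for *Col12a1*. The difference was 0.23 SD (95% CI -1.38 to 1.84) in *Col12a1*, -0.16 SD after quantile normalization, and -0.18 SD (95% CI -1.79 to 1.44) in *Col14a1*. Leaving out collagen-diet array 3 gave -0.26 SD in *Col12a1* and -0.82 SD in *Col14a1*, and leaving out control-diet array 3 gave 0.38 SD in *Col14a1*. *Col16a1* differed by -0.23 SD, *Col20a1* by 0.09 SD and *Col22a1* by -0.05 SD.

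The 3 chains of type IX collagen, a cartilage collagen, lay just above the filter, at levels of 6.75 for *Col9a1*, 6.97 for *Col9a2* and 6.69 for *Col9a3*, and their within-diet SDs were in the lowest 5.72% of the genes tested. *Col9a1* stood at 1.37, 0.81, 0.71 and -1.54 SD in the collagen-diet arrays, against -0.84, -0.43, 0.51 and -0.59 SD in the control-diet arrays. Collagen-diet arrays 1 to 3 lay above all control-diet arrays in *Col9a1* and collagen-diet array 4 below them. The difference was 0.67 SD (95% CI -1.79 to 3.14) and -0.14 SD after centring. Without collagen-diet array 4 it was 2.54 SD, in units of the SD of the remaining arrays. *Col9a3* stood at -0.25, 0.03, 1.10 and -1.77 SD, against -0.91, 0.63, 0.40 and 0.77 SD on the control diet. Its difference of -0.44 SD was 0.10 SD without collagen-diet array 4 and 0.13 SD after quantile normalization. *Col9a2* differed by -0.41 SD, and *Col19a1*, below the filter, by 0.88 SD.

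In the beaded class 4 of 6 genes were higher on the collagen diet and 2 lower, and 0 of the 3 tested passed, with a median of 0.30 SD on the deposited values, 0.14 SD under quantile normalization and -0.09 SD under centring. The 3 genes tested encode the chains of the classical type VI trimer, which forms microfibrils around cells. *Col6a1* stood at -0.99, -0.21, 1.53 and 0.00 SD in collagen-diet arrays 1 to 4, against -0.72, -0.89, 1.17 and 0.10 SD in control-diet arrays 1 to 4. *Col6a2* stood at -1.26, -0.55, 1.62 and -0.27 SD, against 0.08, -0.33, 1.11 and -0.41 SD, and *Col6a3* at -1.20, 0.54, 1.37 and 0.14 SD, against 0.01, -1.13, 0.98 and -0.71 SD on the control diet. In all 3 genes array 3 was the highest of each diet and collagen-diet array 1 was the lowest of the 8. The differences were 0.17 SD (95% CI -1.44 to 1.78) in *Col6a1*, -0.23 SD (95% CI -1.84 to 1.38) in *Col6a2* and 0.42 SD (95% CI -1.19 to 2.04) in *Col6a3*. Without collagen-diet array 3 they were -0.39, -1.28 and 0.04 SD. *Col6a1* was at -0.33 SD after quantile normalization, and *Col6a2* at 0.17 SD without collagen-diet array 1. *Col6a4*, *Col6a5* and *Col26a1*, below the filter, differed by 0.71, -0.01 and 0.71 SD.

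All 4 transmembrane collagens were higher on the collagen diet on the deposited values and 0 of the 3 tested passed, with a median of 0.73 SD on the deposited values, -0.37 SD under quantile normalization and -0.03 SD under centring. *Col17a1* links basal keratinocytes to the basement membrane. It stood at 1.06, 1.05, 0.23 and -0.28 SD in collagen-diet arrays 1 to 4, against -0.99, -1.56, -0.82 and 1.30 SD in control-diet arrays 1 to 4. All 4 collagen-diet arrays lay above 3 of the control-diet arrays and below control-diet array 4. The difference was 1.03 SD (95% CI -0.58 to 2.65), with an adjusted p of 0.999 in limma, 2.90 SD without control-diet array 4 (adjusted p 0.714), -0.71 SD after quantile normalization and 0.13 SD after centring. The 8 basal keratinocyte markers, among which 4 were higher and 4 lower, had mean deviations of 0.52, 0.42, -0.46 and -0.53 SD in the collagen-diet arrays, against -0.56, 0.43, -0.32 and 0.50 SD in the control-diet arrays, and summed levels of 86.589 to 86.590 against 86.588 to 86.590. Like *Col17a1*, these markers were high in collagen-diet arrays 1 and 2 and control-diet array 4 and low in control-diet arrays 1 and 3. Control-diet array 2, lowest for *Col17a1*, was high for the markers, and collagen-diet array 3, at 0.23 SD for *Col17a1*, was low for them. Their part in the *Col17a1* values was not tested. In whole skin, fewer cells of a type and less RNA per cell cannot be told apart.

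*Col23a1*, a transmembrane collagen found in epithelia, stood at 1.53, 0.91, -0.47 and 0.35 SD in the collagen-diet arrays, against 0.34, -2.07, -0.84 and 0.26 SD in the control-diet arrays. Control-diet array 2 was the lowest, and the difference of 1.15 SD (95% CI -0.46 to 2.77) was 0.84 SD without it, -0.33 SD after quantile normalization and 0.05 SD after centring. *Col25a1* differed by 0.34 SD, and *Col13a1*, below the filter, by 0.43 SD. *Col7a1*, the anchoring-fibril collagen whose loss causes blistering, stood at 0.44, -0.83, 1.21 and -0.86 SD in the collagen-diet arrays, against -1.18, 0.51, -0.35 and 1.06 SD in the control-diet arrays. The groups of *Col7a1* overlapped throughout, with a difference of -0.02 SD (95% CI -1.64 to 1.59) that ranged from -0.48 to 0.34 SD as each array was left out. The multiplexins *Col15a1* and *Col18a1*, basement membrane collagens of which the second is the source of endostatin, differed by -0.11 and -0.54 SD.

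Collagen-diet array 3 was the highest of the 8 arrays in 19 of 42 collagen genes, whereas it was the highest in 10.3% of all genes. Control-diet array 3 was the highest in 4 of 42 collagen genes (9.52%), close to its share of 8.54% of all genes. By class, collagen-diet array 3 was highest in 6 of 11 fibrillar, 5 of 6 beaded, 4 of 9 network, 2 of 9 FACIT and 0 of 4 transmembrane collagens. These arrays were singled out after their values were seen, so the counts are a description. Among probe sets not used to represent a gene, collagen-diet array 3 was highest in 14 of the 40 further collagen probe sets (35%), against 10% of all further probe sets. These read the same genes in the same RNA on the same arrays, so they are no independent check. After quantile normalization collagen-diet array 3 was highest in 7 collagen genes, against 3.01% of all genes, and after centring in 8, against 1.34% of all genes. The range of the array medians exceeded the within-diet SD of 93.9% of genes and of 32 of the 42 collagen genes. Centring can set the highest array of such genes, so the 2 shares after centring also differ through spread and are no check of the pattern.

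The mean deviation of the fibrillar class was -0.21, 0.34, 1.04 and -0.32 SD in collagen-diet arrays 1 to 4, against -0.32, -0.32, 0.34 and -0.55 SD in control-diet arrays 1 to 4. Beaded collagens had -0.55, 0.33, 1.41 and -0.59 SD, against -0.41, -0.36, 0.82 and -0.65 SD. Both classes were highest in array 3 of each diet, while the transmembrane class, at 1.30, 0.51, 0.03 and -0.36 SD against -0.28, -0.59, -1.09 and 0.49 SD, was highest in collagen-diet array 1 and lowest in control-diet array 3. The median over all genes lay between -0.21 and 0.27 SD in every array. The 12 fibroblast markers, 6 higher and 6 lower, had -0.54, -0.28, 1.06 and -0.22 SD in the collagen-diet arrays, against -0.55, -0.53, 0.46 and 0.60 SD in the control-diet arrays. Collagen-diet array 3 was thus also the highest for fibroblast markers, whose summed levels ran from 126.843 to 126.850 on the collagen diet and from 126.845 to 126.850 on the control diet. The 14 skeletal muscle markers, 14 higher and 0 lower (median 0.26 SD), had -1.35, 0.21, 0.88 and 0.82 SD, against 0.26, 0.28, 0.29 and -1.39 SD, with summed levels of 143.499 to 147.168 against 143.533 to 146.123. The part of fibroblast or muscle content in the collagen values was not tested. Without the 2 arrays lowest in muscle markers, 0 collagen genes were called, 31 were higher and 11 lower, the median difference was 0.40 SD, and *Col4a2* stood at 0.99 SD, *Col5a1* at 0.26 SD and *Col7a1* at 0.17 SD.

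**Figure D3:**
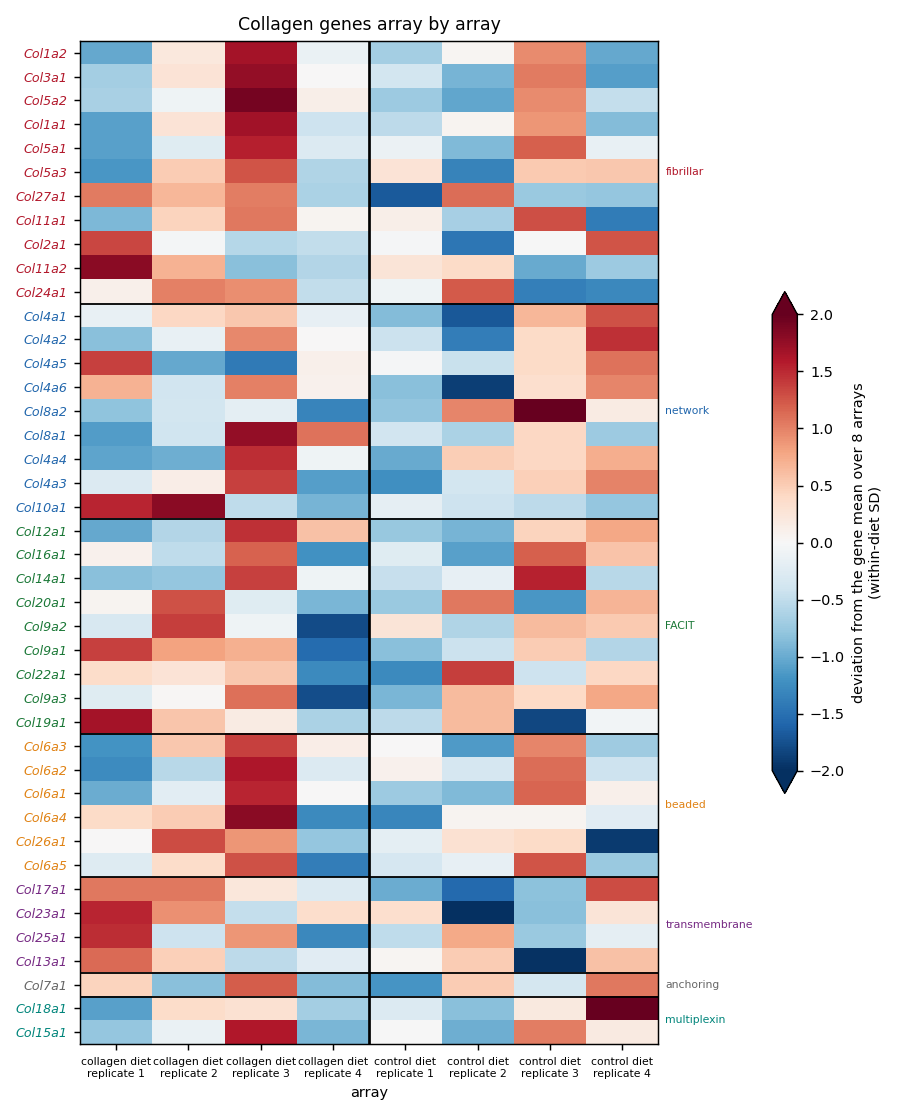
Deviation of each array (columns, 4 collagen-diet arrays left and 4 control-diet arrays right of the black line) from the gene's mean over 8 arrays in within-diet SD (colour, red above and blue below the mean), for 42 collagen genes (rows, by class). The column of collagen-diet replicate 3 is the reddest in most fibrillar and beaded genes, being the highest array in 19 of 42 genes, and the transmembrane rows differ from it.

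The spread between arrays of the same diet differed widely among the collagen genes. On the deposited scale, 14 of the 32 collagen genes tested had a within-diet SD among the highest 10% of the genes tested, and the count was 5 after quantile normalization and 12 after centring. The 14 comprised 6 fibrillar collagens, 3 network-forming collagens, the FACITs *Col12a1* and *Col14a1* and all 3 type VI chains tested. *Col1a1* had an SD above 98.8% of the genes tested, *Col5a1* above 98.1%, *Col14a1* above 97.6%, *Col8a1* above 97.4% and *Col5a2* above 96.7%. *Col4a1* and *Col4a2* stood at 95.9% and 94.2%, and *Col6a1*, *Col6a2* and *Col6a3* between 95% and 95.9%. The genes of low spread were *Col9a1* at 1.95%, *Col9a2* at 2.27%, *Col9a3* at 5.72%, *Col25a1* at 7.50% and *Col20a1* at 14%, whereas *Col17a1* stood at 70.6% and *Col18a1* at 40.2%. On the deposited scale the main dermal collagens were thus among the genes that differed most from array to array within a diet. The difference between the diets was smaller than that spread in each of them. The rank of an SD on this scale also depends on the unknown normalization.

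**Figure D4:**
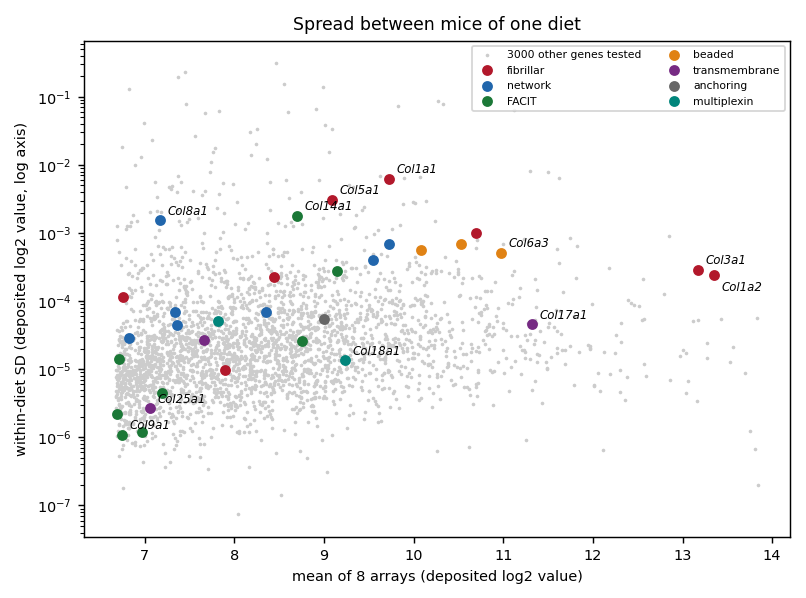
Pooled SD between arrays of the same diet (y axis, deposited log2 value, log axis) against the mean level over 8 arrays (x axis, deposited log2 value) for the 32 collagen genes tested (coloured by class) and 3000 other genes tested (grey). *Col1a1* (98.8% of genes tested lie below its SD) and *Col5a1* (98.1%) stand near the top of the cloud, *Col17a1* (70.6%) within it and *Col9a1* (1.95%) near the bottom.

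Chains that assemble with each other were compared over the 8 arrays in 8 pairs, with exact permutation tests of all 40320 pairings, two-sided and adjusted over the pairs. Pairs of collagen genes that do not assemble were not computed, so a high r is not shown to be particular to partner chains. Array 3 was the highest of each diet in *Col1a1*, *Col6a1* and *Col14a1* alike, which belong to different collagen types. *Col1a1* and *Col1a2*, the chains of type I collagen, had r = 0.99 (exact permutation p = 2.48e-05, adjusted p = 0.000198) and a Spearman rho of 1.00 (exact p = 4.96e-05, adjusted 0.000397), which are nearly the same ordering of arrays in 2 separate probe sets. Without collagen-diet array 3 and control-diet array 3, the 2 arrays farthest from the median, r was 0.95 (exact permutation p = 0.00417). The correlation of these 2 genes after centring was 0.79, with an adjusted p of 0.0273 in the exact permutation test.

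Results for the other pairs were mixed. The type V chains *Col5a1* and *Col5a2* had r = 0.92 (exact permutation p = 0.00298, adjusted 0.00714) and rho = 0.62 (exact p = 0.115, adjusted 0.153), and *Col1a1* and *Col3a1*, partners in mixed fibrils, r = 0.89 (exact permutation p = 0.00325, adjusted 0.00714) and rho = 0.81 (exact p = 0.0218, adjusted 0.0436). The type VI chains had r = 0.88 for *Col6a1* and *Col6a2* (exact permutation p = 0.0089, adjusted 0.0119, with rho = 0.69, exact p = 0.0694, adjusted 0.111) and r = 0.84 for *Col6a1* and *Col6a3* (exact permutation p = 0.00791, adjusted 0.0119, with rho = 0.83, exact p = 0.0154, adjusted 0.041). In these 4 pairs r without array 3 of both diets was 0.51, 0.51, 0.30 and 0.55. The exact permutation p was 0.279, 0.311, 0.619 and 0.204 over the 6 arrays left, so no pair reached 0.05 without those 2 arrays. Leaving out the 2 arrays farthest from the median narrows the range and leaves fewer arrays, which alone makes a call harder. Over all 8 arrays 2 of these 4 pairs also passed by rho. The basement membrane chains *Col4a1* and *Col4a2* had r = 0.89 (exact permutation p = 0.00357, adjusted 0.00714, with rho = 0.86, exact p = 0.0107, adjusted 0.041). Without control-diet arrays 2 and 4 r was 0.67 (exact permutation p = 0.14), which did not reach 0.05, and the pair passed by rho over all 8 arrays. *Col4a5* and *Col4a6* had r = 0.30 (exact permutation p = 0.478, adjusted 0.546, with rho = 0.24, exact p = 0.582, adjusted 0.665). *Col8a1* and *Col8a2* had r = -0.02 (exact permutation p = 0.955, adjusted 0.955, with rho = -0.02, exact p = 0.977, adjusted 0.977), and 0.69 and 0.74 were the values of r for these last 2 pairs without the 2 arrays farthest from the median (exact permutation p = 0.129 and 0.111). In all, 6 of 8 pairs passed by r and 4 by rho. Under quantile normalization 0 of the 6 pairs that could be computed passed (smallest adjusted p 0.0536 in the exact permutation test), and after centring 6 of 8 passed. Centring takes the same value from both genes of a pair on an array. Where this shift exceeds their SD it can itself raise r, so passing after centring is no check of such pairs. The pairs of *Col1a1* with *Col1a2* and with *Col3a1* could not be computed under quantile normalization. It set *Col1a2* and *Col3a1* to the same value on every array, so these pairs have no check there. With 4 arrays a diet, r was not computed within a diet.

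**Figure D5:**
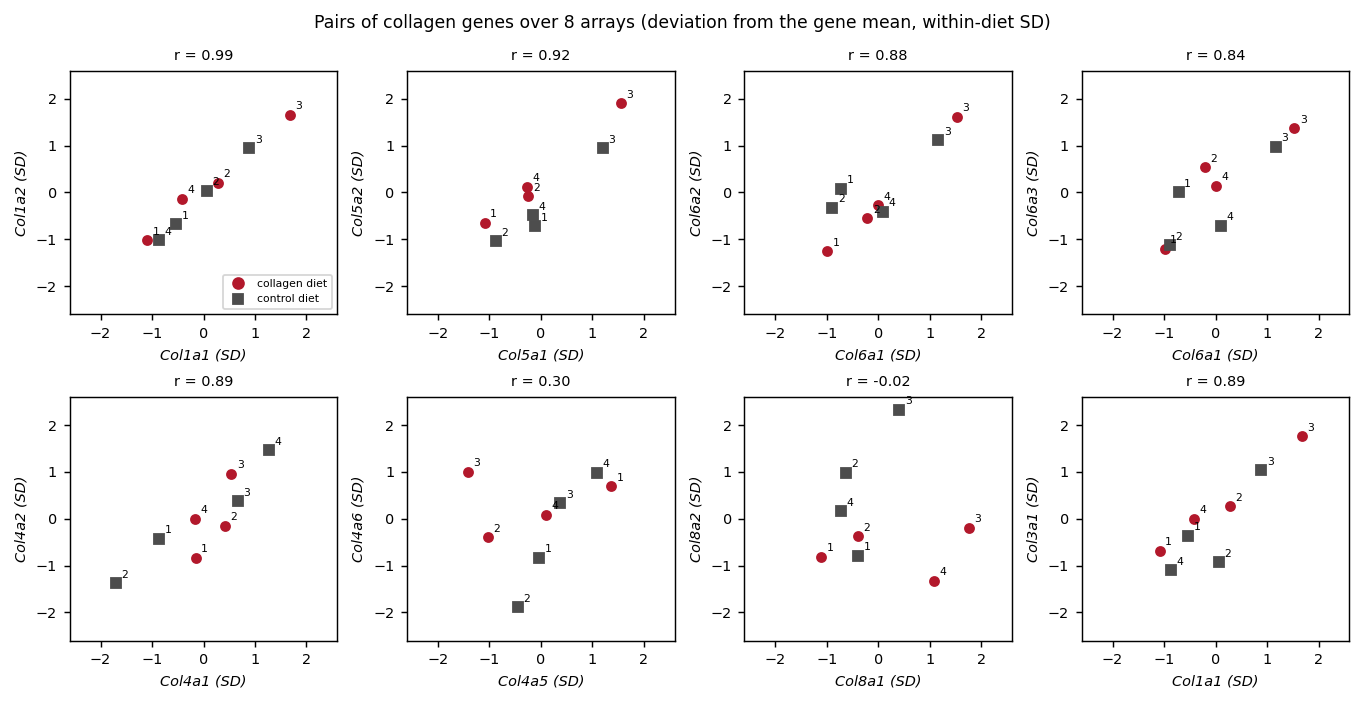
Deviation from the gene mean in within-diet SD for 8 pairs of collagen genes (x and y axes name the genes), with 4 collagen-diet arrays as red circles and 4 control-diet arrays as grey squares, numbered by replicate. *Col1a1* and *Col1a2* lie on a line (r = 0.99), array 3 of both diets is at the upper right in the type I, III, V and VI pairs, and *Col8a1* and *Col8a2* show no line (r = -0.02).

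Genes whose products fold, trim, bind or degrade collagen were read from the same fit in 4 lists of 68 genes, of which 63 were measured and 51 tested. Of these, 0 had an adjusted p below 0.05, and 1 was higher and 0 lower at an unadjusted p below 0.05, where 5.36% of all genes tested reached that p. The 1 gene, no more than that share, was *Mmp9*, gelatinase B, which cleaves denatured collagen and type IV collagen. It stood at 1.34, -0.66, 1.37 and 1.46 SD in collagen-diet arrays 1 to 4, against -1.51, -1.21, -1.37 and 0.57 SD in control-diet arrays 1 to 4. The groups overlapped through collagen-diet array 2 and control-diet array 4, and the difference was 1.76 SD with an unadjusted p of 0.0387 and an adjusted p of 0.917 in limma. In the list of folding, modification and secretion genes 14 of 20 were higher and 6 lower (median 0.27 SD), and 0 of 19 tested were called. *Plod2*, a lysyl hydroxylase whose product marks crosslinks, differed by 1.35 SD, and *Serpinh1*, the collagen chaperone HSP47, by 1.19 SD, both with an adjusted p of 0.999 in limma. *Serpinh1* stood at 0.99, 0.43, 1.19 and -0.24 SD in the collagen-diet arrays, against -1.34, -1.98, 0.57 and 0.37 SD in the control-diet arrays.

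In the list of trimming and crosslinking genes 6 of 13 were higher and 7 lower, with the list median at -0.24 SD. *Loxl1*, a lysyl oxidase relative, stood at -0.71 SD and *Pcolce2*, an enhancer of procollagen trimming, at -0.69 SD. Receptors and uptake genes were higher in 6 of 13 and lower in 7 (median -0.03 SD), where the discoidin receptor *Ddr1* stood at -1.12 SD and *Antxr2*, which takes up type VI collagen, at -0.86 SD. Degradation genes were higher in 9 of 17 and lower in 8 (median 0.09 SD), and *Ctsk*, cathepsin K, stood at 0.82 SD. Folding genes had a mean deviation of 0.85 SD in collagen-diet array 3 and trimming genes one of 0.83 SD, and in both lists this was the highest of the 8 arrays, as it was for fibrillar and beaded collagens.

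Every collagen probe set was also tested on its own. In 27 genes there were several probe sets and in 15 a single one, and 51 of the 82 probe sets lay above the level filter. Of these 51, 0 had an adjusted p below 0.05, against 0% of all 25354 probe sets tested, and 0 had an unadjusted p below 0.05. In 0 of the 82 did the groups stand apart without overlap. A further probe set had the direction of the one used in 21 of 40 cases (52.5%), against 57.1% over all genes. In *Col1a2* all 3 probe sets were higher on the collagen diet, by 0.36, 0.26 and 0.23 SD, and both probe sets of *Col3a1* were higher by 0.67 SD. The probe sets of *Col5a1* disagreed, at -0.03, 0.34 and 0.51 SD, as did those of *Col12a1*, at 0.23, -0.07, -0.46 and -0.89 SD. *Col18a1* stood at -0.54 SD in the probe set used and at 0.12 SD in the other. The probe set used for *Col4a6* was at 0.70 SD and its other one, also above the filter, at -0.56 SD. For *Col23a1* the 3 probe sets stood at 1.15, 1.49 and -0.21 SD.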

How the data were processed

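The authors deposited a value per array for 45101 probe sets, and the range of 5.34 to 14.27 marks these deposited values as log2. R 2.7.2 is named in the submitters' processing notes. Per the labels' protocols, 200 ng of total RNA from frozen, powdered skin was labelled by a kit primed at the 3′ end. The sources used here do not give the background correction, summarization or normalization. Groups follow the sample titles, which call the samples biological replicates. Identical values made up at most 0.0155% of any pair of arrays, and the replicate numbers were not taken as pairs across diets.

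Control probe sets (64) were left out. The platform annotation, which can be old, gave 34945 probe sets a single symbol, 932 several and 9160 none. All 42 collagen symbols matched RefSeq by Entrez ID. The lowest 30% of 18193 genes by mean level were left out. The test was limma's (version 3.58.1, R 4.3.3; lmFit and eBayes with an intensity trend, two-sided), with Benjamini-Hochberg adjustment over 12735 genes, a threshold of 0.05 and 6 residual and 0.613 prior degrees of freedom. The fit was tested on simulated data.

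All 42 collagen genes could be named. Per-array values were given for 14 genes of the main skin collagens, and for the 2 members of smallest p in each of 5 classes, 20 genes in all. Of each of 4 partner lists the 2 members of smallest p were named. *Col8a1*, *Col4a5* and the remaining members are given by their differences. Members, lists and pairs were chosen with earlier results of these data known. Alternatives were other filters, scalings, variance models and probe set rules, the replicate block and leaving out arrays. Leaving out the 2 arrays lowest in muscle markers, and the alternatives for the count of variable genes and of genes highest in collagen-diet array 3, were chosen after seeing the data. The number of arrays limits precision. Promoters come from a RefSeq table of GRCm38.p6.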

Additional observations from a re-analysis of the deposited data

How the results depend on the processing

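The counts of 0 collagen genes and 0 partner genes called held under every alternative run. Over all genes, 1 was called with the lowest 50% left out and 0 to 1 as each array was left out. With the replicate number as a block, 0 collagen genes were called and the median difference was 0.35 SD, in the SD left after the block. In that unit the class medians were 0.91 SD for fibrillar, 0.06 SD for network, -0.04 SD for FACIT, 0.52 SD for beaded and 0.69 SD for transmembrane collagens. *Col5a2* stood at 2.16 SD and *Col8a2* at -1.86 SD. The block changed no call. Same-numbered arrays correlated at 0.00, -0.02, 0.18 and -0.07, where 0.18 for array 3 was the highest between the diets. The numbers were not taken as pairs, and these values do not settle whether they are. Quantile normalization gave 13 collagen genes higher, 25 lower, 5 among the most variable 10% and a transmembrane median of -0.37 SD. It turned *Col4a1* to -0.19, *Col6a1* to -0.33, *Col12a1* to -0.16, *Col17a1* to -0.71, *Col4a6* to -0.15, *Col9a3* to 0.13 and *Col23a1* to -0.33 SD. Centring gave 13 higher and 29 lower and turned *Col27a1* to -0.08 and *Col9a1* to -0.14 SD. The mean of all probe sets turned *Col5a1* to 0.10 SD and gave class median levels of 7.56 (fibrillar), 7.29 (network), 6.64 (FACIT), 8.22 (beaded) and 6.95 (transmembrane). Without the 2 arrays lowest in muscle markers, *Col5a1* was at 0.26, *Col4a2* at 0.99 and *Col7a1* at 0.17 SD. Spearman's rho was 0.62 for *Col5a1* and *Col5a2* and 0.69 for *Col6a1* and *Col6a2*. Under quantile normalization r was 0.77 for *Col5a1* and *Col5a2*, 0.50 for *Col6a1* and *Col6a2*, 0.95 for *Col6a1* and *Col6a3* and 0.85 for *Col4a1* and *Col4a2*, none passing. Centring gave 0.95 for *Col4a5* and *Col4a6*, now passing, and 0.68 for *Col1a1* and *Col3a1*, no longer passing. Array medians lay up to 0.000369 apart, against within-diet SDs of 6.93e-05 in *Col4a5* and 4.51e-05 in *Col4a6*. Centring takes that shift from both genes alike, so the 0.95 cannot show that these genes vary together. Without the 2 arrays farthest from the median, r was 0.51, 0.30, 0.55, 0.67 and 0.51 for the type V, *Col6a1* and *Col6a2*, *Col6a1* and *Col6a3*, type IV and *Col1a1* and *Col3a1* pairs and 0.74 for *Col8a1* and *Col8a2*. As each array was left out, collagen genes higher ranged from 21 to 35, lower from 7 to 21, and the most variable from 13 to 14. The difference ranged from -0.41 to 0.69 SD in *Col1a1*, -0.17 to 0.84 in *Col1a2*, -0.75 to 0.40 in *Col5a1*, -0.27 to 0.97 in *Col4a1*, -0.57 to 0.59 in *Col4a2*, -0.39 to 0.67 in *Col6a1*, -1.28 to 0.17 in *Col6a2*, -0.26 to 0.65 in *Col12a1*, -0.82 to 0.38 in *Col14a1*, -0.48 to 0.34 in *Col7a1* and -1.03 to 0.10 in *Col9a3*. For the scalings, the filter and the probe sets the cause was not tested. Signal over background was not analysed here.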

Other observations

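Marker lists of the other cells that whole skin can hold were read from the same fit, with 0 genes called in each. The 6 adipocyte markers measured had mean deviations of 0.51, 0.52, -0.30 and -0.33 SD in collagen-diet arrays 1 to 4, against -1.05, -0.26, 0.61 and 0.29 SD in control-diet arrays 1 to 4. The 8 endothelial markers had 0.15, -0.66, 0.53 and 0.45 SD, against -1.0, -0.43, 0.44 and 0.52 SD on the control diet. The 7 smooth muscle markers had -0.13, -0.48, 0.54 and 0.33 SD, against -0.53, 0.12, -0.81 and 0.96 SD, with 1 gene higher and 1 lower at an unadjusted p below 0.05 in limma. The 4 Schwann cell markers measured had -0.06, 0.00, 0.62 and 0.29 SD, against -1.14, -0.20, 0.31 and 0.16 SD. Cartilage markers, of which 2 of 8 passed the level filter, had 0.45, 0.00, -0.13 and -0.63 SD, against -0.19, 0.35, 0.29 and -0.14 SD. The groups overlapped in each of these 5 list scores. Relations between the lists and the collagen genes were not tested.

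Among the 20 collagen genes with per-array values, 0 of the 40 groups of 4 arrays had an array standing far from the other 3 by Dixon's test, where chance alone gives about 1 in 20.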
